A study of Mus musculus with 6 samples.

Results

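The 39 genes described here encode nuclear receptors of the mouse, with the steroid receptors and the Hnf4 genes not among them. They were chosen by gene symbol from a list of the family, with no use of measured values, and all 39 were found among 27095 gene windows. Accessibility of chromatin around gene starts was measured by ATAC-seq, an assay that uses the Tn5 transposase to insert sequencing adapters into open DNA. The sample labels list the molecule as total RNA and the library source as transcriptomic, whereas the extraction protocol and the series' design describe ATAC-seq of DNA, and the values are read here as ATAC-seq. The cells were MHC class II-high epithelial cells of the thymic medulla (mTECs). Both groups had the C57BL/6 background: 3 libraries came from wildtype mice and 3 from Kat7 knockout mice, with a biological replicate behind each library. KAT7 is a MYST-type enzyme that acetylates histones. The sources used here do not give the promoter or Cre that drove the deletion, the deleted part of Kat7 or the age of the mice. Since each library came from many sorted cells, fewer cells of a subset and less accessibility per cell cannot be told apart.

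Nuclear receptors are transcription factors, many of which change their activity when a small lipid-soluble ligand (a fatty acid, a retinoid, thyroid hormone, vitamin D, a bile acid or an oxysterol) enters a pocket in their C-terminal domain. Most bind DNA through a pair of zinc fingers, often as heterodimers with a retinoid X receptor, at repeats of the hexamer AGGTCA, and recruit corepressors or coactivators that include histone deacetylases and acetyltransferases. The orphan members lack a known physiological ligand, and the NR0B members lack the DNA-binding domain. In the thymus, mTECs express genes of many other tissues so that developing T cells meet these self-antigens, and some nuclear receptors are lineage factors of such tissues.

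Library totals lay between 15482439 and 19832326 counts, and a count of 3 corresponded to 0.154 to 0.192 CPM, which covers counting error only. Levels are CPM, counts per 1000000, scaled by library size and TMM factor. Knockout library 1 stood apart in its scaling, with a TMM factor of 0.884 against 0.985 to 1.06 in the other 5 libraries. The promoter of the targeted gene Kat7 had 290.5, 238.2 and 271.9 CPM in the wildtype and 11.9, 13.2 and 38.3 CPM in the knockout libraries. The labelled cell type was checked on 14 mTEC genes, whose summed level was 2603 to 2717 CPM in wildtype and 2641 to 3217 in knockout, and none of whose windows was at 0. Markers of other cells summed to less: 37.4 to 41.6 CPM in wildtype for 10 thymocyte genes, 57.2 to 58.3 for 5 B cell genes, 97.4 to 106.9 for 7 myeloid and dendritic genes, 125.7 to 132.4 for 6 mesenchymal genes and 41.3 to 44.6 for 5 endothelial genes. The 6 genes of cortical thymic epithelium summed to 271.7 to 289.3 CPM. The lists differ in number of genes, so these sums do not measure purity. Cd3d and Cd3g share 92.9% of their window bases with others, and counts in shared windows appear low. An open window does not show that its gene is expressed.

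Among the nuclear receptors, accessibility was lost at 16 of 37 testable windows in the knockout and gained at none (edgeR quasi-likelihood test, Benjamini-Hochberg adjustment over all windows, threshold 0.05). At an unadjusted p under 0.05 the counts were also 16 lower and 0 higher. DESeq2 called 13 lower and 0 higher, against 17.9% and 7.37% of the windows it tested. Of all 24817 windows tested, 20.2% were called lower and 6.36% higher, against 43.2% of the members lower. The median log2 fold change of the members was -0.30, and that of all windows was 0.04. Across settings the members' median lay between -0.402, without wildtype library 2, and -0.121, after loess normalisation. Loess normalisation centres fold changes at each level of accessibility. The members' median was -0.169 without knockout library 1, -0.141 with libraries 2 and 3 of each group alone and -0.175 with limma-voom. The median of all windows lay between -0.002 and 0.076 across settings. At least 2-fold losses were called at 5 members, Ppara, Nr0b1, Rorb, Rxrg and Pparg, against 7.28% of all windows. With loess normalisation the 2-fold losses were 2, Ppara (-1.43) and Nr0b1 (-1.10), against 4.2% of all windows, and 11 of the 16 called members had log2 fold changes smaller by more than 1.5 times, of which 5 were still called. The absence of gains did not hold in every setting, and all windows also had more gains in the settings named next. With library totals only, 16 members were lower and 5 higher, against 21.4% and 11.8% of all windows. Loess normalisation gave 13 lower and 5 higher, against 21% and 19.2%. Over windows with mean counts of 50 or more, 16 members were lower and 9 higher, against 29.2% and 23.3%. With limma-voom, 18 were lower and 4 higher, against 27.5% and 19.1%.

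**Figure D1:**
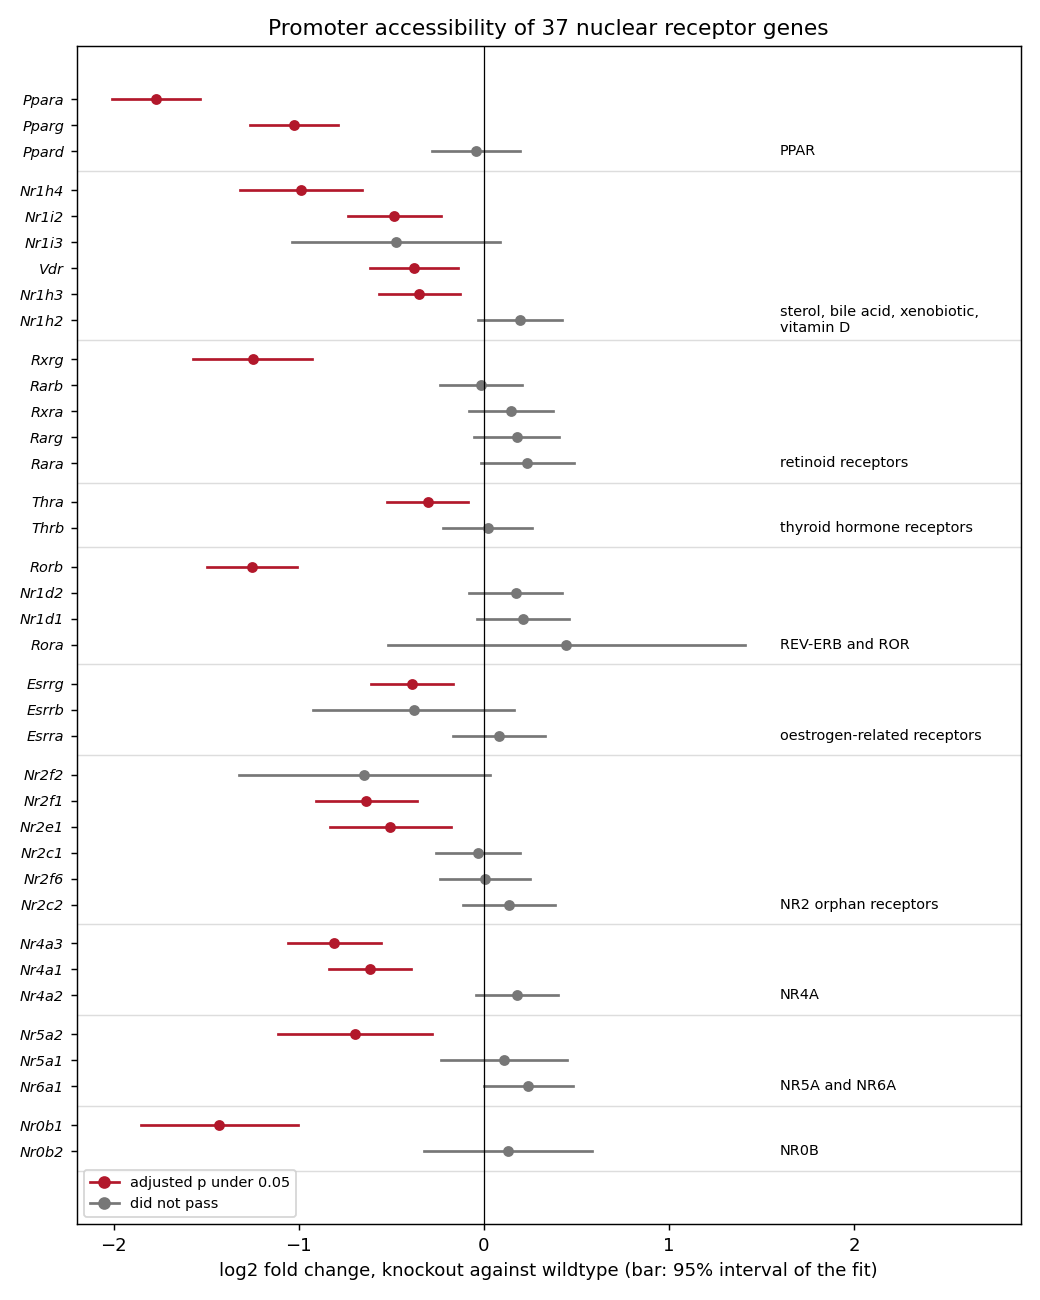
Log2 fold change of promoter accessibility, Kat7 knockout against wildtype (x axis), for each of the 37 tested members, grouped by the role of the receptor. Points are estimates, bars 95% intervals of the fit, and red marks the 16 members past the threshold; each group holds at least 1 of them, and Ppara lies lowest at -1.77.

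The promoters shown are those of the members with the largest losses, chosen by the size of the loss, and they differ widely in base composition. Each is the 250 bases upstream of the RefSeq start in the window (assembly GRCm38.p6, which has the coordinates of mm10), 5′ to 3′ on the gene's strand, and capitals mark the CG dinucleotides. Ppard is added as the related promoter that did not pass, and was picked after its values were seen.
Ppara, chr15:85735526-85735775, plus strand: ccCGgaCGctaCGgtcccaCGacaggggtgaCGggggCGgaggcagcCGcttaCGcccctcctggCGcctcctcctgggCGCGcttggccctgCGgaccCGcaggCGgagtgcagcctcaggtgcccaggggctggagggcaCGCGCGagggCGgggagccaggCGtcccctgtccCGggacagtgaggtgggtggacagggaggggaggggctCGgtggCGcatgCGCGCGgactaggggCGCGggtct
Nr0b1, chrX:86191525-86191774, plus strand: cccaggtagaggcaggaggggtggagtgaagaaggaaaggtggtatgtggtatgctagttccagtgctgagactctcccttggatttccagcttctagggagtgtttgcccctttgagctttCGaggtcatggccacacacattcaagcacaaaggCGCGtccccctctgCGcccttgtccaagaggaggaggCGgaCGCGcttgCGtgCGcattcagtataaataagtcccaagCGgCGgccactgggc
Rorb, chr19:19111197-19111446, minus strand: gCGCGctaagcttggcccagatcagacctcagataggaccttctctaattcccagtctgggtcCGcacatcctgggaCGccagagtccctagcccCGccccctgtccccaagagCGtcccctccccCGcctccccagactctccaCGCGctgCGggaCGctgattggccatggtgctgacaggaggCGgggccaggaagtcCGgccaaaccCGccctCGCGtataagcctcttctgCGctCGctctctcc
Rxrg, chr1:167598112-167598361, plus strand: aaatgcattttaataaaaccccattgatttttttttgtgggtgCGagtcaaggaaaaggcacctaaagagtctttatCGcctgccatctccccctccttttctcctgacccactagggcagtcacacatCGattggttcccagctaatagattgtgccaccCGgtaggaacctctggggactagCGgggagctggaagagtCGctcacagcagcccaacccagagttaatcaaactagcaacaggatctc
Ppard, chr17:28232504-28232753, plus strand: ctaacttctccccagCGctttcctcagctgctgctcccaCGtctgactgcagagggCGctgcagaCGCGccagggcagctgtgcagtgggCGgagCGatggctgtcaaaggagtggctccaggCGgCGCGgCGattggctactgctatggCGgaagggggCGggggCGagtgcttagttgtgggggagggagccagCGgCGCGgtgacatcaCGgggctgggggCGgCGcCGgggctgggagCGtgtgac

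Ppara and Ppard hold 27 and 22 CG dinucleotides in these 250 bases, Rorb 18, Nr0b1 11 and Rxrg 6. A CG-rich promoter was thus among those that fell as well as among those that did not pass. RefSeq gave promoters for 37 of the 39 members, 35 of them with a start inside the window counted here; Thra and Nr5a1 had no entry. Over the 13 called members with such a start, CG dinucleotides numbered 2 to 38 with a median of 11, and over the 20 that did not pass 1 to 44 with a median of 15.5. The ranges overlap almost wholly. All 32851 promoters of the table had a median of 6. At 14 members, at least 1 RefSeq start lies outside the window and was not measured here. These are Pparg, Nr1h4, Rara, Rarg, Rxra, Rxrg, Thrb, Rorb, Esrrb, Esrrg, Nr2f1, Nr4a3, Nr5a2 and Nr6a1.

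The receptors' own hexamer, AGGTCA, was searched in the same 250 bases on both strands. It occurred at 3 of the 13 called members (Pparg, Nr5a2 and Nr0b1), at 3 of the 20 that did not pass (Rarg, Thrb and Nr1d2) and at 14.0% of all promoters. In the Nr0b1 sequence above it directly follows the CG after "gagcttt". The longer NR4A element AAAGGTCA, which contains AGGTCA, was not found at these members and was found at 1.3% of all promoters. The cAMP response element TGACGTCA occurred at Nr2e1 alone among them (1.5% of all promoters), the E-box CACGTG at Nr1i3 and Nr0b2 (6.0%) and the TATA box letters TATAAA at Esrrg, Nr5a2, Nr0b1, Nr4a2 and Nr0b2 (12.4%). These are matches of letters in a short stretch, with no measure of binding.

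The receptors for fatty acids and their derivatives showed the largest loss among the 39 genes. Ppara, the regulator of fatty acid oxidation in liver and other tissues, had 44.0, 35.9 and 42.7 CPM in wildtype (here and below in the order of libraries 1, 2 and 3) and 10.1, 11.3 and 14.6 CPM in knockout. Every knockout library lay far below every wildtype library, at 24.8% to 35.7% of the wildtype mean. The log2 fold change was -1.77 (SE 0.121, adjusted p = 4.05e-46, chromosome 15, 85732564 to 85737564, mm10). Pparg, the master regulator of fat cell differentiation, fell from 34.3, 25.9 and 27.3 CPM to 16.7, 12.1 and 14.2 CPM (log2 change -1.03, SE 0.121, adjusted p = 5.57e-16, chromosome 6, 115358221 to 115363221). Its groups were also separate, with knockout libraries at 41.4% to 57.2% of the wildtype mean, and loess normalisation gave -0.67 (adjusted p = 0.000193). The window covers 2 of 3 RefSeq starts of Pparg, and the remaining start lies 58.8 kb away and was not measured here. Ppard, the broadly expressed member of the group, did not pass (-0.04, 95% interval -0.28 to 0.19, adjusted p = 0.836), with 100.7 to 108.7 CPM in wildtype and 92.0 to 117.2 CPM in knockout. The log2 ratio of Ppara to Ppard, which does not depend on library scaling, was -1.30, -1.49 and -1.26 in wildtype and -3.53, -3.05 and -2.66 in knockout. This pair was picked for its difference, so the ratio is a description.

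Among the sensors of sterols, bile acids, foreign compounds and vitamin D, 4 of 6 windows were called lower, against 20.2% of all windows. That share of all windows varied with accessibility (quartiles below). Nr1h4, the bile acid receptor FXR of liver and intestine, had 9.83, 10.5 and 10.7 CPM in wildtype and 5.10, 5.01 and 5.56 CPM in knockout (log2 change -0.99, SE 0.168, adjusted p = 5.03e-08). The knockout libraries were close to each other and all below the wildtype ones, and loess normalisation gave -0.51 (adjusted p = 0.00608). The RefSeq start of Nr1h4 in the table lies 24.96 kb outside this window (chromosome 10, 89531622 to 89536622), which therefore reports another stretch than that start. Nr1i2, the xenobiotic receptor PXR, fell from 16.9, 17.8 and 20.1 to 12.9, 11.9 and 14.4 CPM (-0.48, adjusted p = 0.00106), but after loess normalisation it was at -0.06 (adjusted p = 0.731). Vdr, the vitamin D receptor, had the highest wildtype level of the called members, with 119.5, 114.3 and 112.6 CPM against 100.3, 82.1 and 84.1 CPM in knockout. Its groups did not overlap (-0.38, SE 0.12, adjusted p = 0.00838). The call of Vdr was lost without wildtype library 1 (adjusted p = 0.0737), knockout library 2 (0.114) or knockout library 3 (0.0523).

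The LXR genes, whose products sense oxysterols and raise cholesterol efflux, had values on opposite sides of 0. Nr1h3 (LXR alpha) fell from 40.7, 37.9 and 38.5 to 33.3, 29.5 and 29.2 CPM (-0.35, SE 0.113, adjusted p = 0.00965). Its call was lost under DESeq2 (adjusted p = 0.0782), after loess normalisation (-0.145, adjusted p = 0.122), and on leaving out wildtype library 1 (0.0547), knockout library 2 (0.0706) or knockout library 3 (0.0647). Nr1h2 (LXR beta) had 69.8 to 72.5 CPM in wildtype and 77.4 to 88.3 in knockout, which did not overlap, and did not pass (0.20, adjusted p = 0.224). It passed with library totals only (0.17, adjusted p = 0.0191), after loess normalisation (0.20, adjusted p = 0.00565) and over windows with mean counts of 50 or more (0.22, adjusted p = 0.00275). Nr1i3, the xenobiotic receptor CAR, had few counts (39 to 69 per library) and a log2 fold change of -0.47 (adjusted p = 0.231) with all knockout libraries below all wildtype ones. Over all windows tested, the knockout libraries all lay below the wildtype ones in 24.6% and all above in 13.5%, against 16 and 4 of the 37 members.

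**Figure D2:**
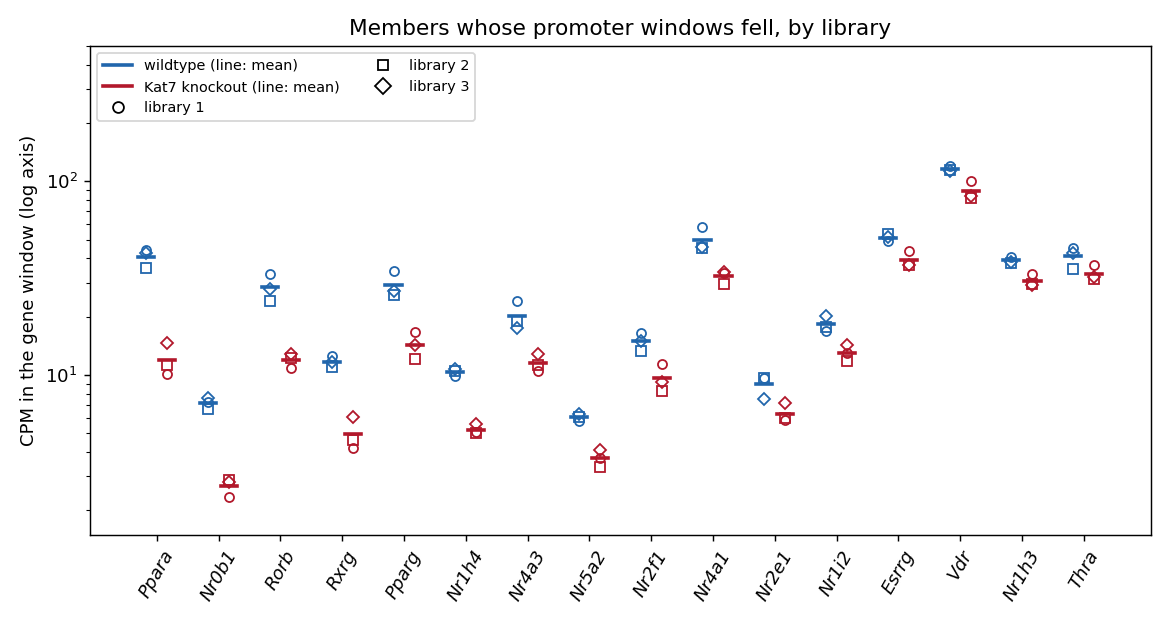
CPM in the gene window (log axis) for the 16 members that fell, ordered by fold change, in wildtype (blue) and Kat7 knockout (red) libraries. Symbols are libraries 1 to 3 and lines the group means; the groups do not overlap for 15 of the 16, the exception being Thra at the right.

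Of the retinoid receptors, Rxrg alone was called. RAR proteins bind retinoic acid, and RXR proteins are the common heterodimer partners of many other members. Rxrg, the RXR of muscle, brain and retina, had 12.5, 11.0 and 11.6 CPM in wildtype and 4.18, 4.60 and 6.05 CPM in knockout (log2 change -1.25, SE 0.165, adjusted p = 7.39e-13, chromosome 1, 167595362 to 167600362), and -0.77 with loess normalisation (adjusted p = 0.000437). Rxra, its broadly expressed relative, did not pass (0.15, 95% interval -0.08 to 0.37), but passed as higher with loess normalisation (0.16, adjusted p = 0.0268) and over windows with mean counts of 50 or more (0.17, adjusted p = 0.02). The log2 ratio of Rxrg to Rxra was -2.65 to -2.44 in wildtype and -4.30 to -3.61 in knockout, again for a pair picked for its difference. A second RefSeq start lies outside the window for Rxrg (17.9 kb away) and for Rxra (30.1 kb away) and was not measured here. The windows of Rara (0.24, adjusted p = 0.173), Rarb (-0.01, adjusted p = 0.944) and Rarg (0.18, adjusted p = 0.281) did not pass. Rarg passed as higher with loess normalisation (0.17, adjusted p = 0.0299), limma-voom (0.16, adjusted p = 0.0442) and mean counts of 50 or more (0.20, adjusted p = 0.00938). Rara had a very open window, with 195.9, 200.7 and 203.5 CPM in wildtype and 266.1, 225.7 and 214.7 CPM in knockout. All its knockout values were above the wildtype ones, knockout library 1 most of all, and it passed with library totals only (0.20, adjusted p = 0.00129), with limma-voom (0.15, adjusted p = 0.0314) and over windows with mean counts of 50 or more (0.26, adjusted p = 0.000885). After loess normalisation Rara was at -0.003 (adjusted p = 0.965). The Rxrb window had 0 counts in all 6 libraries and lies wholly inside other windows, so its promoter was not measured.

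The thyroid hormone receptor genes differed little between groups. Thra, the main receptor of heart and brain, had 45.5, 35.3 and 42.8 CPM in wildtype and 37.1, 31.3 and 31.9 CPM in knockout (-0.30, SE 0.112, adjusted p = 0.0286), the only called member whose groups overlap, through wildtype library 2. The call was lost under DESeq2 (adjusted p = 0.196), after loess normalisation (-0.121, adjusted p = 0.279), and on leaving out wildtype library 1 (0.239), knockout library 2 (0.177) or knockout library 3 (0.125). Thrb did not pass (0.02, 95% interval -0.22 to 0.26), with 127.7 to 133.4 CPM in wildtype and 122.2 to 150.5 in knockout.

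Within the REV-ERB and ROR group, which sets the phase of the circadian clock by repression and activation at shared DNA elements, Rorb was called and the other members were not. Rorb, a receptor of retina and brain, fell from 33.3, 24.1 and 27.7 CPM to 10.8, 12.2 and 12.8 CPM (log2 change -1.25, SE 0.124, adjusted p = 2.76e-22, chromosome 19, 19109196 to 19114196). Its knockout libraries were at 38.1% to 45.2% of the wildtype mean. A second RefSeq start of Rorb, 108.1 kb outside the window, was not measured here. The clock repressors had very open windows: Nr1d2 (REV-ERB beta), the most open member per length of the whole window, had 253.4, 231.7 and 225.2 CPM in wildtype and 302.9, 251.9 and 245.3 CPM in knockout. The groups of Nr1d2 overlap (0.17, adjusted p = 0.353), and it passed as higher with library totals only (0.14, adjusted p = 0.0224) and over windows with mean counts of 50 or more (0.19, adjusted p = 0.00994). Nr1d1 (REV-ERB alpha) had 188.6 to 194.7 CPM in wildtype and 207.3 to 244.8 in knockout (0.21, adjusted p = 0.229). It passed with library totals only (0.18, adjusted p = 0.00264), over windows with mean counts of 50 or more (0.23, adjusted p = 0.00159), with limma-voom (0.15, adjusted p = 0.0372) and with libraries 2 and 3 alone (0.14, adjusted p = 0.032). Rora, with 14 to 22 counts per library in a window that shares 70.0% of its bases with another, gave 0.44 (95% interval -0.52 to 1.41).

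Oestrogen-related receptors resemble oestrogen receptors in sequence, bind no oestrogen and act on mitochondrial genes. Esrrg, the form of heart, muscle and brain, fell from 49.1, 53.3 and 51.4 to 43.8, 36.9 and 36.8 CPM (-0.39, SE 0.112, adjusted p = 0.00299), and was at -0.26 with loess normalisation (adjusted p = 0.00541). The groups did not overlap, and 3 of its 4 RefSeq starts lie outside the window. Esrra, the second most open member per length of the whole window, had 223.5, 198.1 and 201.0 CPM in wildtype and 244.9, 208.7 and 205.2 CPM in knockout (0.08, adjusted p = 0.688). Its groups overlap and 28.6% of its window is shared with another, and after loess normalisation Esrra was lower (-0.15, adjusted p = 0.0121). Esrrb, a factor of embryonic stem cells, had 51 to 79 counts in wildtype and did not pass (-0.38, 95% interval -0.92 to 0.16). In knockout it had 25 counts in library 1 and 53 and 59 in the others.

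Among the NR2 orphan receptors 2 of 6 tested windows were called lower, against 20.2% of all windows. Nr2f1 (COUP-TFI), a patterning factor of the nervous system, fell from 16.4, 13.3 and 15.1 to 11.5, 8.30 and 9.17 CPM (-0.63, SE 0.139, adjusted p = 3.91e-05). Its window shares 60.7% of its bases with others, and after loess normalisation it did not pass (-0.17, adjusted p = 0.341). Nr2e1 (TLX), which keeps neural stem cells undifferentiated, had 9.68, 9.64 and 7.56 CPM in wildtype and 5.84, 5.97 and 7.15 CPM in knockout. The gap between its groups was small (-0.51, SE 0.167, adjusted p = 0.0121), and the call was lost under DESeq2 (0.0859), after loess normalisation (-0.03, 0.895), and on leaving out wildtype library 1 (0.0724), wildtype library 2 (0.0599), knockout library 2 (0.0858) or library 1 of both groups (0.0966). Nr2f2 (COUP-TFII), with 42 to 52 counts in wildtype and 52.8% of its window shared, had a like log2 fold change of -0.65 with a wide 95% interval of -1.32 to 0.03 (adjusted p = 0.165). After loess normalisation it passed (-0.65, adjusted p = 0.0441). The testicular receptor genes Nr2c1 (-0.03) and Nr2c2 (0.14) and Nr2f6 (0.01) did not pass. Nr2f6 passed as lower after loess normalisation (-0.17, adjusted p = 0.00563), Nr2c1 with limma-voom (-0.18, adjusted p = 0.0331) and Nr2c2 as higher over windows with mean counts of 50 or more (0.16, adjusted p = 0.0337). Nr2e3, a photoreceptor factor, had 1 to 12 counts in a window with 95.7% of its bases shared and was not tested.

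The NR4A genes encode receptors that act without a ligand and are induced quickly by cell stimulation. Nr4a1 (NUR77) had 57.8, 45.2 and 45.7 CPM in wildtype and 33.7, 29.5 and 34.1 CPM in knockout (log2 change -0.61, SE 0.113, adjusted p = 4.91e-07, chromosome 15, 101263846 to 101268846). Nr4a3 (NOR1) fell from 24.0, 18.9 and 17.5 to 10.5, 11.2 and 12.9 CPM (-0.81, SE 0.129, adjusted p = 5.11e-09), and was at -0.38 with loess normalisation (adjusted p = 0.0283). In both genes every knockout library was below every wildtype one. The Nr4a3 window begins 2.9 kb downstream of the RefSeq start in the table, so it reports a stretch inside the gene rather than that start. Nr4a2 (NURR1), a factor of dopamine neurons, did not pass (0.18, 95% interval -0.04 to 0.40), with 45.6 to 49.6 CPM in wildtype and 48.2 to 62.7 in knockout, but passed as higher after loess normalisation (0.28, adjusted p = 0.00314) and over windows with mean counts of 50 or more (0.20, adjusted p = 0.0196). The log2 ratio of Nr4a1 to Nr4a2 was 0.34, -0.13 and -0.02 in wildtype and -0.90, -0.74 and -0.50 in knockout, a description of a pair picked for its difference.

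Endocrine and germ line orphan receptors had mostly low counts. Nr0b1 (DAX1), an X-linked repressor of steroidogenesis, had 7.27, 6.71 and 7.62 CPM in wildtype and 2.35, 2.86 and 2.81 CPM in knockout, the second largest loss among the 39 genes (log2 change -1.43, SE 0.217, adjusted p = 6.84e-10, chromosome X, 86188775 to 86193775). These are 105 to 142 counts in wildtype and 41 to 48 in knockout, with no overlap. Nr0b2 (SHP), which represses bile acid synthesis, did not pass (0.13, 95% interval -0.32 to 0.59). Nr5a2 (LRH-1), a factor of liver, pancreas and intestine, fell from 5.79, 6.07 and 6.26 to 3.72, 3.34 and 4.09 CPM (-0.70, SE 0.212, adjusted p = 0.0054). A second RefSeq start of Nr5a2, 4.82 kb outside the window, was not measured here. The call of Nr5a2 was lost after loess normalisation (-0.33, adjusted p = 0.126) and without wildtype library 3 (0.0589) or knockout library 2 (0.0588). Nr5a1 (SF-1), the regulator of adrenal and gonadal steroidogenesis, had 5.68 to 7.32 CPM in wildtype and 6.19 to 8.31 in knockout (0.11, adjusted p = 0.689), and was higher after loess normalisation (0.58, adjusted p = 0.00509). Nr6a1 (GCNF), a repressor in germ cells and embryos, had 113.8 to 133.0 CPM in wildtype and 126.0 to 160.9 in knockout (0.24, adjusted p = 0.143). It passed with the replicate block (0.24, adjusted p = 0.045), without wildtype library 2 (0.27, adjusted p = 0.0372), with library totals only (0.21, adjusted p = 0.00689), with limma-voom (0.20, adjusted p = 0.00573) and over windows with mean counts of 50 or more (0.26, adjusted p = 0.00208).

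Except at Vdr, the losses lay at promoters of intermediate accessibility, where all windows also fell most often (quartiles below). Per kb of window, the 18 tested members between 1 and 12 CPM in wildtype included 15 of the called ones. None of the 4 between 12 and 20 was called, and only Vdr was called among the 10 above 20 CPM per kb. The 5 below 1 did not pass. Shares of all windows in these bands were not computed, and the band edges were not set by a planned rule. The bands therefore only describe where the called members lay. This pattern moved with the normalisation. With loess, 9 of the 18 were lower and 2 higher, and 3 of the 4 between 12 and 20 were higher. Vdr, Esrra and Nr2f6 were lower among the 10 most open, and Nr2f2 was lower among the 5 below 1. Windows were split into quartiles by mean accessibility over all libraries, with medians of 1.21, 4.13, 27.7 and 107 CPM. In quartile 2, 5 of 10 members fell, against 32.5% of all windows there, and in quartile 3, 10 of 12 fell, against 43.3%. In quartile 4, 1 of 14 fell, against 3.72%, and the single member of quartile 1, Rora, did not pass, against 1.29%. The median log2 fold change in quartiles 2, 3 and 4 was -0.58, -0.55 and 0.14 for the members and -0.27, -0.19 and 0.11 for all windows. The order of wildtype levels per length ran from Nr1d2 (47.4 CPM per kb), Esrra (41.5), Rara (40.0), Nr2c2 (39.1) and Nr1d1 (38.1) down to Nr2f2 (0.548) and Rora (0.178). Of these, Nr2c2 with 189.8 to 203.2 CPM overlapped Rara and Nr1d1 in wildtype, and Esrra overlapped Rara. Levels per length were taken over the whole window, shared bases included. Esrra, Nr2f2 and Rora share 28.6%, 52.8% and 70.0% of their bases, so their levels may be too low and their places in the order are uncertain.

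**Figure D3:**
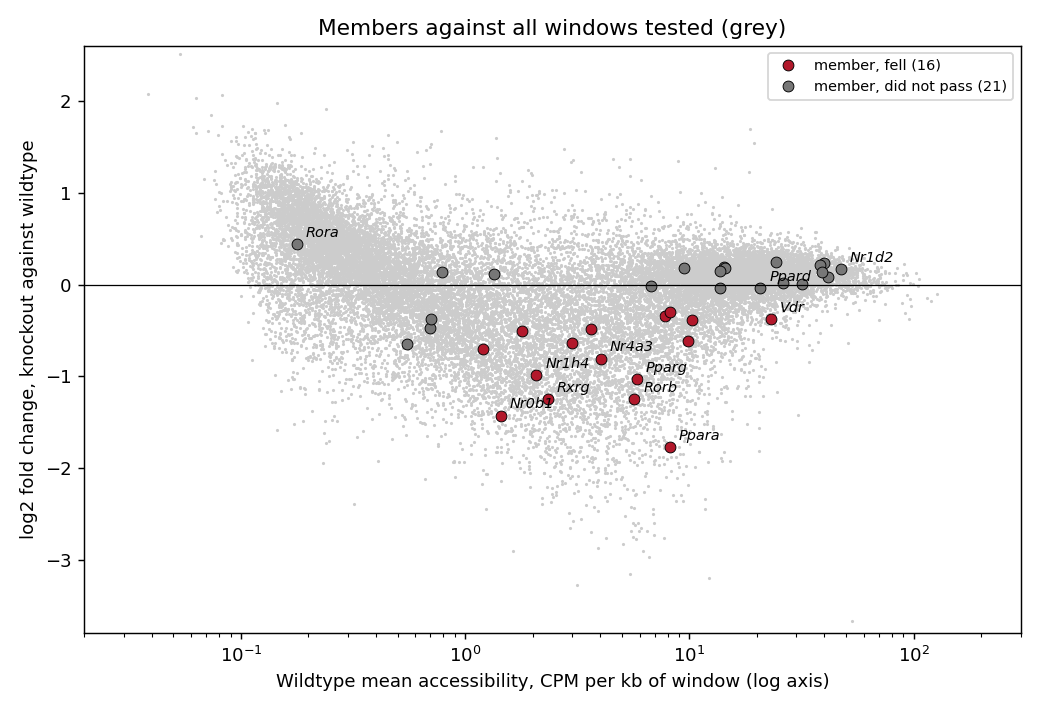
Wildtype accessibility per kb of window (x axis, log scale) against the log2 fold change in knockout (y axis) for all tested windows (grey dots) and the 37 tested members (red: fell, dark grey: did not pass). The 16 red points lie at intermediate accessibility except Vdr at 23.1 CPM per kb, and the most open members lie near or slightly above 0.

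Within 100 kb of the 16 called windows, 48 other windows were tested, of which 9 were lower (18.8%), 2 higher (4.17%) and 37 did not pass. These shares are near those of all windows, 20.2% and 6.36%. Around Ppara, Pkdrej, a sperm polycystin gene (-0.93, adjusted p = 7.43e-06), and Ttc38 (-0.44, adjusted p = 0.000553) were lower, whereas Mirlet7b, the nearest at 25.2 kb (-0.57, adjusted p = 0.145), Mirlet7c-2 and Cdpf1 did not pass. Near Rxrg the homeobox gene Lmx1a fell (-0.87, adjusted p = 1.11e-05), and near Nr1h4 the cytoskeletal gene Gas2l3 (-0.72, adjusted p = 5.12e-09). A830082K12Rik, whose window overlaps that of Nr2f1, fell (-0.89, adjusted p = 0.00142) while 3110006O06Rik near it rose (0.48, adjusted p = 0.0118). Near Thra, the gasdermin gene Gsdma fell (-0.72, adjusted p = 4.88e-06) and Msl1, a scaffold of another MYST acetyltransferase complex, rose (0.33, adjusted p = 0.0315). Spi1 near Nr1h3 (-0.67, adjusted p = 0.0338), Col2a1 near Vdr (-0.34, adjusted p = 0.0215) and Tamalin near Nr4a1 (-0.37, adjusted p = 0.0092) were also lower. Pparg, Rorb, Esrrg and Nr5a2 had no other window within that distance.

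Genes that make, carry or break down the receptors' ligands fell more often than they rose, with 15 of 27 tested windows lower (55.6%) and 2 higher (7.41%), against 20.2% and 6.36% of all windows (median log2 fold change -0.45, against 0.04). Of these 27, 12 lay in accessibility quartile 3, where 10 fell. Among the largest changes were those at Aldh1a1, a retinaldehyde dehydrogenase (9.66 ± 0.995 to 2.96 ± 0.783 CPM, SD, n = 3, log2 fold change -1.71, edgeR adjusted p = 3.65e-17), Dio2, the deiodinase that activates thyroxine (-1.36, adjusted p = 4.38e-20), and Crabp1, a retinoic acid binding protein (-1.32, adjusted p = 9.76e-10). All 3 retinaldehyde dehydrogenase genes of the list fell, with -0.72 at Aldh1a2 and -1.19 at Aldh1a3. The retinaldehyde reductase gene Dhrs3 (0.54) and Cyp7b1, an oxysterol hydroxylase gene (0.30), were higher.

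Known target genes of the receptors were mixed, with 8 of 24 lower (33.3%) and 4 higher (16.7%, median 0.07). Of all windows, 20.2% were lower and 6.36% higher (median 0.04). Quartile 3 holds 10 of the 24, of which 6 fell and 3 rose, against 43.3% and 9.3% of all windows there. The bile acid transporter subunits Slc51a (-1.21, adjusted p = 8.38e-14) and Slc51b (-1.02, adjusted p = 4.23e-10), the intestinal hormone gene Fgf15 (-1.12, adjusted p = 1.68e-15), which are FXR targets, and the lipid droplet gene Plin2 (-0.999, adjusted p = 5.03e-17), a PPAR target, changed most. Of the coregulators, 1 of 18 was lower (5.56%) and 4 higher (22.2%, median 0.20). In quartile 4, which holds 12 of the 18, 4 were higher, and all windows there also rose more often (9.32%) than they fell (3.72%). Lower was Ppargc1a, the coactivator PGC-1 alpha of mitochondrial biogenesis, from 55.5 ± 2.05 to 15.7 ± 3.41 CPM (SD, n = 3, log2 fold change -1.83, edgeR adjusted p = 2.64e-51). Among those that rose were Ppargc1b (0.55, adjusted p = 1.44e-05, a window with 49.4% of its bases shared) and Tbl1x, a subunit of the NCoR complex (0.44, adjusted p = 0.00185). Of 9 family genes that are not members, 6 fell (66.7%, against 20.2% of all windows) and 3 did not pass. Quartile 3 holds 5 of the 9, and all 5 fell, against 43.3% of all windows there. The 6 that fell include the sex steroid receptor genes Pgr (-2.90, adjusted p = 7.2e-86) and Esr1 (-2.19, adjusted p = 4.39e-44), and Hnf4g (-0.97, adjusted p = 2.94e-15).

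**Figure D4:**
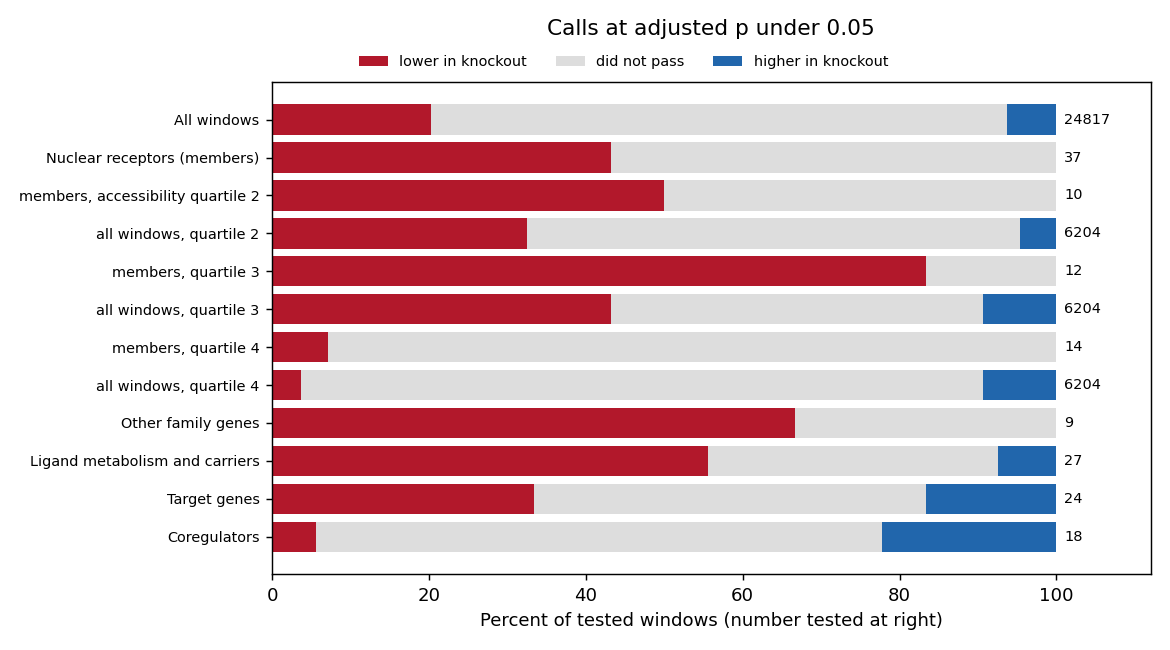
Percent of tested windows called lower (red), higher (blue) or not past the threshold (grey) at adjusted p under 0.05, with the number tested at the right. The 37 members had 43.2% lower against 20.2% of all windows, and 83.3% lower in accessibility quartile 3 against 43.3%.

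Windows of markers of other cells moved in both directions. Over all windows tested, 20.2% were lower and 6.36% higher. The shares lower were 32.5% in quartile 2 and 43.3% in quartile 3, and the shares higher 4.58% and 9.3%. These quartiles hold all the B cell, myeloid and dendritic, mesenchymal and tested thymocyte genes, and all but 1 of the endothelial genes. The mTEC genes all lie in quartile 4, where 9.32% of all windows rose. Of 5 B cell genes 3 fell and 2 did not pass, and their summed level was 57.2 to 58.3 CPM in wildtype and 36.4 to 38.1 in knockout. Of 7 myeloid and dendritic genes 4 fell and 3 did not pass, with 97.4 to 106.9 against 85.2 to 98.8 CPM. Of 6 mesenchymal genes 3 fell and 2 rose (125.7 to 132.4 against 108.4 to 110.8 CPM), of 5 endothelial genes 2 fell and 1 rose (41.3 to 44.6 against 33.2 to 36.7 CPM), and of 10 thymocyte genes 8 were tested and 2 rose (37.4 to 41.6 against 39.6 to 45.2 CPM). Of 6 genes of cortical thymic epithelium, 2 rose and 4 did not pass (271.7 to 289.3 against 266.9 to 312.5 CPM). Of the 14 mTEC genes, Foxn1, the thymic epithelial transcription factor (1.69, adjusted p = 5.1e-36), and the keratin gene Krt5 (0.61, adjusted p = 2.25e-06) rose and 12 did not pass. No marker window was at 0 in all libraries. Their part in the members' losses was not tested.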

How the data were processed

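For 6 ATAC-seq libraries the authors deposited raw counts, 1 per gene window and library. Per the submitters' processing notes, featureCounts and build mm10 were used. Aligner, duplicate removal, Tn5 offset and counting unit (fragments or ends) were not given in the sources used here. Unremoved duplicates can raise single windows. All 6 library tables held the counts of the series table, and gave the symbols, joined by gene identifier. The window of each member spanned 5001 bases, and 7 members' windows share bases with others; reads in shared stretches appear to be left out, so these counts are low. Libraries of a group differed by more than sampling noise in every pair (chi-square per window from 1.858 to 6.761). Samples were grouped by genotype from the labels.

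The tests used edgeR 4.0.16 in R 4.3.3 (filterByExpr defaults, TMM, robust glmQLFit and glmQLFTest, 24817 of 27095 windows tested, biological coefficient of variation 10.9%), with Benjamini-Hochberg adjustment over all windows at 0.05. Every adjusted p not credited to another setting comes from this fit. CPM were computed from counts, library totals and TMM factors, and SEs are the log2 fold change over the square root of F. Ranking into quartiles used log2(CPM + 0.5). The test was run on simulated data first. Other settings, 14 in all, were DESeq2 1.42.0, limma-voom with sample weights (limma 3.58.1), library totals, loess offsets, no filter, a mean count of at least 50, the replicate block, windows sharing no base, and leaving out each library. Libraries 2 and 3 of each group alone was added after seeing the data. CPM per library are given for all called members and the 3 most open others, and counts, as ranges, only where they are few; of the other lists, the 4 largest changes past the threshold, of which some genes are not reported here; of neighbours within 100 kb, those past it. The members and lists were chosen with earlier results of these data known. Promoter sequences and gene starts came from RefSeq (GRCm38.p6). The separate animals behind replicates are stated by the series' design text.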

Additional observations from a re-analysis of the deposited data

How the results depend on the processing

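The number of members called lower was 16 and lay between 11 and 18 in every alternative. The share of all windows called lower was 20.2% and lay between 16.9% and 29.2%. Leaving out each library gave 11 to 16 lower and 0 to 1 higher, with 11 without knockout library 2 and 12 without wildtype library 1. The number called higher, 0 in the test as planned, was 5 with library totals only, 5 after loess normalisation, 9 with a mean count of at least 50, 4 with limma-voom, 1 with the replicate block and 1 with libraries 2 and 3 alone. The cause was not tested. All windows shifted the same way, from 6.36% higher to 11.8%, 19.2%, 23.3%, 19.1%, 11.4% and 10.6%. Of the 16 called members, 9 passed in every alternative and 7 lost the call in at least 1, always with the same sign; 10 of the 16 remained called after loess normalisation. The replicate block kept all 16 lower calls and added 1 higher, Nr6a1. Deviations of log2(CPM + 0.5) from the group mean were correlated between wildtype and knockout libraries. The values were 0.355, 0.026 and 0.401 for same-numbered libraries, and -0.456 to 0.302 for libraries of unlike number. Such deviations cancel within each group, so positive values bring negative ones with them. Libraries 1 and 3 correlated best with their own number and library 2 did not. The labels give only a replicate number, and whether same-numbered libraries share a batch was not tested.

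Signs changed at 12 members that had not passed. Nr2f6 was at -0.029 with library totals, -0.171 after loess, -0.034 with no filter, -0.117 with limma-voom, -0.002 with the block, -0.003, -0.038, -0.02 and -0.12 without wildtype library 1, 2 or 3 or knockout library 1, -0.01 over unshared windows and -0.127 with libraries 2 and 3 alone. Thrb was at -0.012, -0.112, -0.019 and -0.058 in the first 4 of these settings, -0.041, -0.005 and -0.082 without wildtype library 2 or 3 or knockout library 1, and -0.069 with libraries 2 and 3 alone. After loess normalisation Rara was at -0.003, Rarb 0.202, Nr1d1 -0.013, Nr1d2 -0.094, Esrra -0.151 and Nr2c2 -0.092. With DESeq2 Ppard was at 0.009, Rarb 0.035 and Nr2c1 0.018. Without knockout library 2 Ppard was at 0.011, Rarb 0.032 and Nr2c1 0.062, and without knockout library 3 Ppard was at 0.02. Rarb was at 0.015 with a mean count of at least 50, Nr5a1 at -0.004 without wildtype library 1, Esrra at -0.009 without knockout library 1 and Esrrb at 0.04 with libraries 2 and 3 alone. With each library left out in turn, Ppard ranged from -0.169 to 0.02, Rarb from -0.079 to 0.032, Thrb from -0.082 to 0.078, Esrra from -0.009 to 0.136, Nr2f6 from -0.12 to 0.069 and Nr5a1 from -0.004 to 0.21. Except for Esrra and Nr2f6 after loess normalisation, none of these passed. The intervals of Nr1i3, Esrrb, Nr2f2, Nr0b2 and Rora, which have few counts, span 0, and a difference within them was not detectable at this depth in the test as planned; Nr1i3 passed with limma-voom (adjusted p = 0.0147) and Nr2f2 after loess (0.0441).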
